A study of Arabidopsis thaliana with 4 samples.

Results

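Genes encoded in the plastid genome were followed on 4 Affymetrix arrays of Arabidopsis seedlings, 2 of the mutant ced1 and 2 of wild type (WT). The 69 members are the probe sets that the platform annotation assigns to a single gene with a plastid locus tag, out of 22746 probe sets on the array. They comprise 43 photosynthesis genes, namely 5 psa, 15 psb, 6 pet, 6 atp and 10 ndh genes with rbcL, and 26 others, namely 4 rpo, 8 rps and 7 rpl genes and 7 further genes. Another 8 plastid probe sets, each listed with 2 gene records, were left out. The ced1 seedlings carried the ced1 mutation in the gl1-Col0 background and the WT seedlings were gl1-Col0 without it, so that both lack the function of GLABRA1, a trichome gene. All were 16 days old, had grown under continuous light and had been exposed for 6 h to 40% polyethylene glycol (PEG), which draws water from the plant and so imposes osmotic stress. As background, ced1 is a BODYGUARD allele with an altered cuticle, and stress induces the abscisic acid synthesis gene NCED3 only weakly in it. A single mutant line represents the genotype. All levels are from PEG-treated seedlings, and untreated ones were not analysed here.

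The plastid genome keeps a small set of the genes its cyanobacterial ancestor had. They code for core subunits of photosystem I (psa), photosystem II (psb), the cytochrome b6f complex (pet), the ATP synthase (atp) and the NDH complex of cyclic electron flow (ndh), for the large subunit of Rubisco (rbcL), and for parts of the plastid's own transcription (rpo) and translation (rps, rpl) machinery. Most are transcribed as polycistronic units, by a bacterial-type polymerase whose core is plastid-encoded and by phage-type polymerases from the nucleus. Stable plastid mRNAs mostly lack a poly(A) tail, while standard array labelling starts from one, so the signals below are read as array signals and not as amounts of transcript. Signals of different genes come from different probes and are not set against each other.

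After PEG, few of the members passed the test for a difference between ced1 and WT. Of the 69 members, 65 had enough signal to be tested, and 5 were higher and 1 was lower in ced1. That is 9.23% of the tested members, whereas 42.4% of all 13648 tested probe sets passed (23.2% higher and 19.2% lower). The higher genes were rbcL, rps16, psbN, petG and rpoA, and the lower gene was psbA; psbN was kept in the test only by its ced1 signals. The median log2 difference, ced1 minus WT, was 0.17 over the 69 members, and 0.13 over the 65 tested, beside 0.07 over all tested probe sets. The 8 plastid probe sets left out are not in these counts, and of 6 tested there 1 was higher and 3 were lower. Test results are from limma on log2(signal + 16), with p adjusted over all 13648 tested probe sets and a threshold of 0.05.

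**Figure D1:**
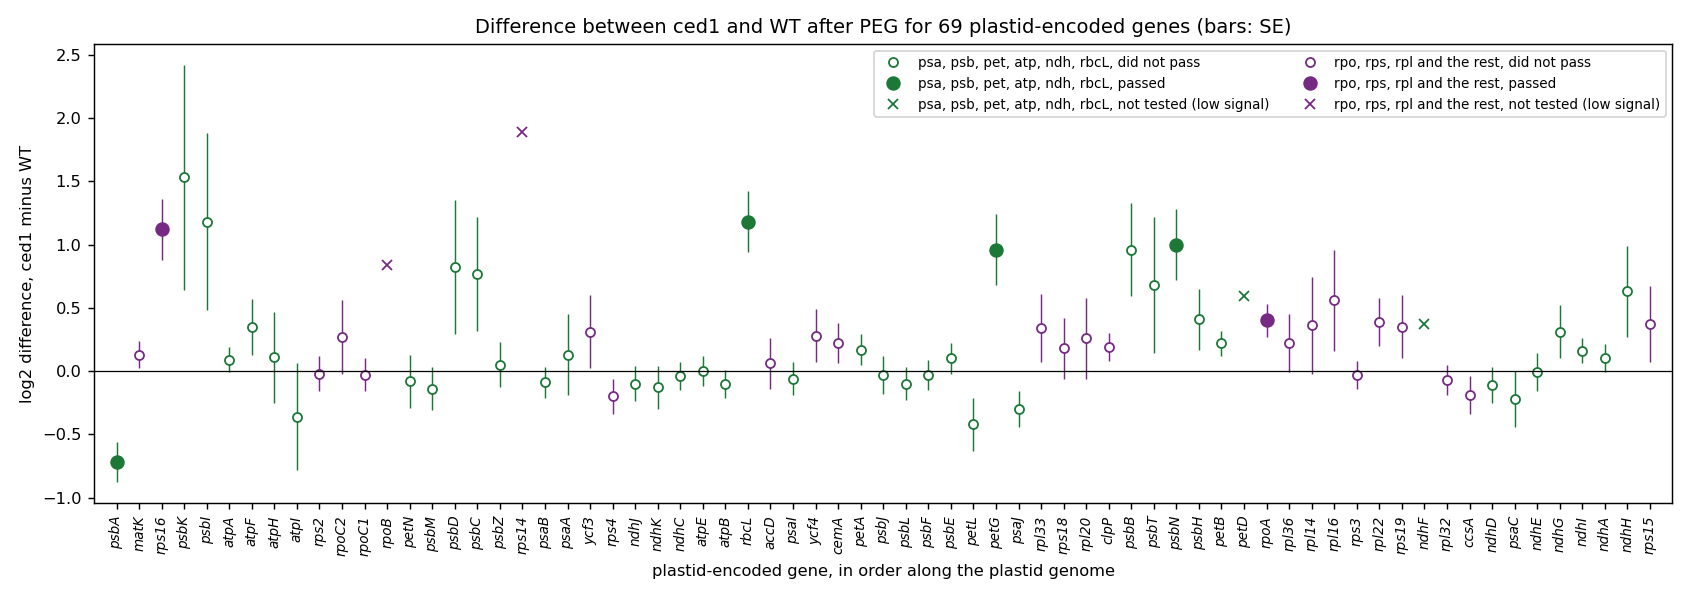
Each point is the log2 difference in signal, ced1 minus WT, of 1 plastid-encoded gene (vertical axis), with genes in their order along the plastid genome (horizontal axis) and bars for the SE. Filled points passed the test, open points did not, and crosses mark the 4 genes with too little signal to be tested. Most points lie near 0, psbA lies at -0.72, and psbK, the highest tested point at 1.53, has the widest bar.

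The members gave nearly the same profile in both genotypes. Across the 69 genes, log2 signals correlated with r = 0.950 to 0.987 between a ced1 and a WT array, with r = 0.987 between the ced1 arrays and with r = 0.964 between the WT arrays. Over all tested probe sets the arrays of different genotype correlated with r = 0.839 to 0.874, and arrays of a genotype with r = 0.989 for ced1 and r = 0.970 for WT. These correlations run across genes that share the same 4 arrays and are given as a description. Signals of ced1 and WT arrays did not overlap for 20 of the 65 tested members (30.8%), against 74.7% of all tested probe sets.

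rbcL codes for the large subunit of Rubisco, the enzyme that fixes carbon dioxide. Its signals were 1643.7 and 1282.7 on the ced1 arrays, against 502.5 and 792.9 on the WT arrays (probe set 245015_at). Both ced1 arrays lay above both WT arrays. The log2 difference was 1.18 ± 0.24 (SE; limma adjusted p = 0.00730), and the mean signals had a ratio of 2.26. Without ced1 array 1 the difference was 1.00 and did not pass (adjusted p = 0.0516).

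psbA codes for D1, the photosystem II reaction centre protein that is damaged by light and constantly replaced. Its signals were 1959.1 and 2228.1 on the ced1 arrays, against 3856 and 3080.8 on the WT arrays (probe set 245047_at), so the groups did not overlap and ced1 was lower. The log2 difference was -0.72 ± 0.16 (limma adjusted p = 0.0100). It was -0.63 without ced1 array 1, where it did not pass (adjusted p = 0.106). Relative to the median of the plastid-encoded genes on each array it was -0.83, which did not pass either (adjusted p = 0.0570), and on that scale 0 members were called lower by limma, psbA being the 1 with an unadjusted p under 0.05.

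rps16, for a protein of the small ribosomal subunit, had signals of 354.4 and 291.1 on the ced1 arrays, against 111.9 and 172.9 on the WT arrays, a log2 difference of 1.12 ± 0.24 (limma adjusted p = 0.00982). petG, for a small subunit of the cytochrome b6f complex, had 361.5 and 276.8 in ced1, against 115.5 and 207 in WT, a difference of 0.96 ± 0.28 (limma adjusted p = 0.0313). psbN, for a protein needed to assemble photosystem II, had 167.5 and 156.4 in ced1, against 55.4 and 95.1 in WT, a difference of 1.00 ± 0.28 (limma adjusted p = 0.0255). In all 3 genes the ced1 arrays lay above the WT arrays, and WT array 1 was the lowest of the 4. Both WT signals of psbN lay under the level of the low-signal filter, 102.7, so that it entered the test only through its ced1 signals and had to differ; its call is no independent support for a difference, and its size depends on the offset of 16. Without the filter, psbN and petG did not pass (adjusted p = 0.0655 and 0.0741). When ced1 array 1 was left out, rps16 at 0.98, petG at 0.77 and psbN at 0.95 all missed the threshold. Without ced1 array 2, petG at 1.14 and psbN at 1.04 did not pass.

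rpoA codes for the alpha subunit of the plastid-encoded RNA polymerase. It had signals of 8386.1 and 10174.8 on the ced1 arrays, against 7128.3 and 6839.8 on the WT arrays. The groups did not overlap, and the log2 difference was 0.40 ± 0.13 (limma adjusted p = 0.0440). This call was lost with quantile normalization at 0.33, with equal array medians at 0.22, relative to the plastid-encoded median at 0.30, without an intensity trend or without the low-signal filter at 0.40, without ced1 array 1 at 0.54 and without ced1 array 2 at 0.26. Without ced1 array 1, 0 of 65 plastid-encoded genes passed in limma's test, with 4 higher and 1 lower at an unadjusted p under 0.05, while 19.8% of all tested probe sets still passed. Without ced1 array 2, 4 members passed (rbcL, rps16, rpl33 and psbA), beside 18.7% of all tested probe sets. Without the low-signal filter 4 of 69 members passed, beside 22.5% of all probe sets, and with a filter at the 60th percentile 3 of 58, beside 48.4%. With equal array medians 6 members passed, beside 41.1% of all tested probe sets. Relative to the plastid-encoded median 7 did, beside 25.6%, namely rbcL, rps16, petG, psbN, psbB, psbI and psbK, all higher. On that scale psbA and rpoA were lost, and the deposited signals of psbI and psbK overlapped between the genotypes.

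**Figure D2:**
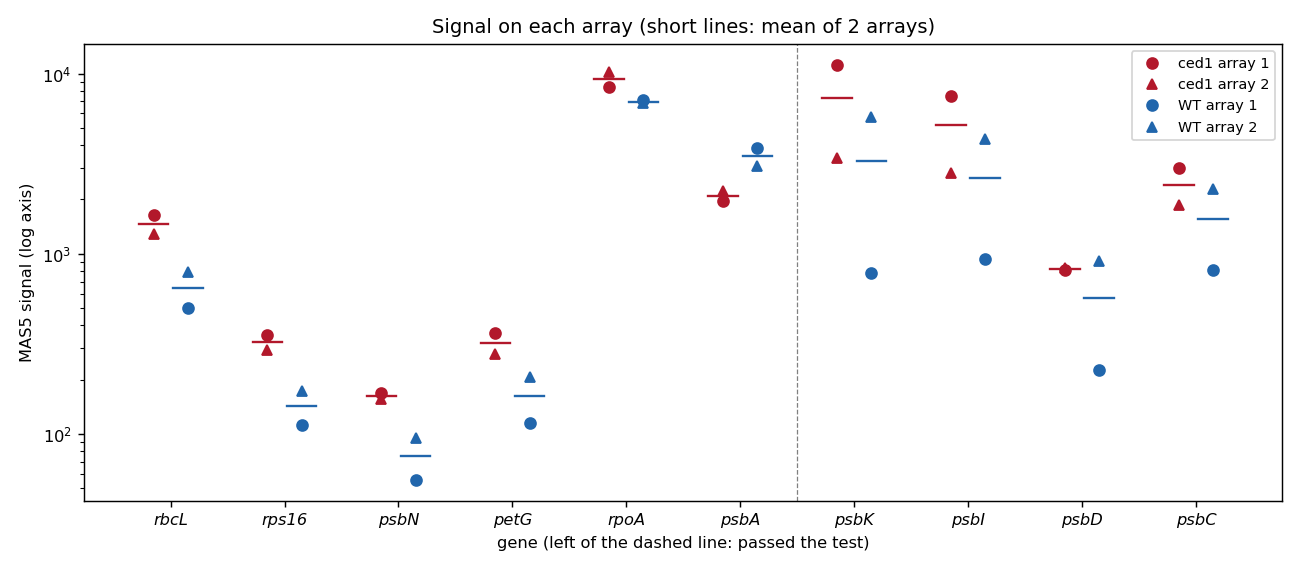
MAS5 signal on a log axis (vertical) of the 6 genes that passed, left of the dashed line, and of psbK, psbI, psbD and psbC, with the ced1 arrays in red on the left of each gene and the WT arrays in blue on the right. Short lines are means of 2 arrays. The genotypes do not overlap in the genes that passed, whereas WT array 1 lies far below WT array 2 in the other genes.

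The median differences of the groups were small, and their sign depended on the scaling for some. By symbol prefix the median log2 difference was 0.41 for psb, 0.34 for rpo and rpl, 0.27 for rps, 0.19 for pet and for the rest, 0.05 for atp and ndh, and -0.09 for psa. With equal array medians it was below 0 for atp and ndh, at -0.14 and -0.13, and without WT array 1 it was 0.02 for psb and -0.11 for rpl. Over the 43 photosynthesis genes the median log2 difference was 0.10, with 3 higher, 1 lower and 37 not passing of 41 tested. Over the other 26 genes it was 0.27, with 2 higher, none lower and 22 not passing of 24 tested. Of all tested probe sets 23.2% were higher and 19.2% lower, the shares to set beside these counts and those given below. Setting the array medians equal moved the median of all tested probe sets from 0.07 to -0.10, and the medians of these groups to -0.08 and 0.09. Without WT array 1 they were -0.01 and -0.05, and without WT array 2 they were 0.16 and 0.52. Whether the groups differ from each other was not tested.

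Of the photosystem I genes none of 5 passed. The reaction centre genes psaA and psaB differed by 0.13 ± 0.32 and -0.09 ± 0.12. psaC, for the iron-sulphur subunit that passes electrons to ferredoxin, differed by -0.22 ± 0.22, and psaI and psaJ, for small subunits, by -0.06 ± 0.13 and -0.30 ± 0.14. psaJ had 3716.7 and 3025.7 in ced1, against 4100.4 and 4187.6 in WT, without overlap, and was called lower with equal array medians at -0.49 (limma adjusted p = 0.0466).

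Among 15 photosystem II genes, psbN and psbA were the ones that passed. psbB and psbC, which code for the inner antenna proteins CP47 and CP43, differed by 0.96 ± 0.37 and 0.77 ± 0.45, and psbD, for the reaction centre protein D2, by 0.82 ± 0.53. psbE and psbF, for the subunits of cytochrome b559, differed by 0.10 ± 0.12 and -0.03 ± 0.12. The small-subunit genes psbJ, psbL, psbM and psbZ lay between -0.14 for psbM and 0.05 for psbZ, and psbH differed by 0.41 ± 0.24. The wide errors of psbB, psbC and psbD came with WT arrays that lay far apart, as given below.

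Of the cytochrome b6f genes, petA, for cytochrome f, and petB, for cytochrome b6, differed by 0.17 ± 0.12 and 0.22 ± 0.10, in both cases with ced1 arrays above WT arrays. petL differed by -0.42 ± 0.21 and petN by -0.08 ± 0.21. petD, for subunit IV, had too little signal to be tested, with 149.8 and 109.3 in ced1, against 57.9 and 108 in WT.

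None of the 6 ATP synthase genes passed. atpA and atpB, for the catalytic head's alpha and beta subunits, differed by 0.09 ± 0.10 and -0.10 ± 0.11, and atpE, for the epsilon subunit, by 0.00 ± 0.12. The membrane-sector genes atpF, atpH and atpI differed by 0.35 ± 0.22, 0.11 ± 0.36 and -0.36 ± 0.42. atpA had 14490 and 14363.1 on the ced1 arrays, against 13181.4 and 13846.3 on the WT arrays, which is without overlap but within the error of the test (limma adjusted p = 0.494).

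The WT arrays lay close together for most NDH genes, with a median absolute log2 difference of 0.13 between ced1 arrays and of 0.13 between WT arrays over the 10 genes. None of the 9 tested passed, and their log2 differences ran from -0.13 for ndhK to 0.63 for ndhH. ndhI had 16650.4 and 17082.9 in ced1, against 15098.9 and 15102.5 in WT, a difference of 0.16 ± 0.10. ndhA, ndhC, ndhD, ndhE, ndhG and ndhJ differed by 0.10, -0.04, -0.11, -0.01, 0.31 and -0.10. ndhF had signals of 40.3 and 2.3 in ced1, against 17.6 and 2.4 in WT, too near background for a comparison.

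Among the gene expression genes, rpoC1 and rpoC2, for the beta' and beta'' subunits of the plastid-encoded polymerase, differed by -0.03 ± 0.13 and 0.27 ± 0.29. rpoB, for the beta subunit, was not tested and had 130.6 and 105.7 in ced1, against 63.8 and 53.7 in WT. Of 7 tested rps genes rps16 was the one that passed, and rps2, rps3, rps4, rps15, rps18 and rps19 differed by -0.02, -0.03, -0.20, 0.37, 0.18 and 0.35. rps14 was not tested in the fit with the filter. It had 89 and 76.6 in ced1, against 7 and 14.8 in WT, and was called higher when the filter was left out; the WT signals are so low that the size cannot be read. None of 7 rpl genes passed, with differences from -0.07 for rpl32 to 0.56 for rpl16.

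The 7 remaining genes had differences between -0.19 and 0.31, and none passed. clpP, for the proteolytic subunit of the stromal Clp protease, differed by 0.19 ± 0.11, and accD, for a subunit of the acetyl-CoA carboxylase that starts fatty acid synthesis, by 0.06 ± 0.20. matK, a maturase for plastid introns, differed by 0.13 ± 0.11. ycf3 and ycf4, which act in photosystem I assembly, differed by 0.31 ± 0.29 and 0.28 ± 0.21. ccsA, needed to attach haem to c-type cytochromes, differed by -0.19 ± 0.15, and cemA, for an envelope protein, by 0.22 ± 0.16.

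The replicate arrays of WT differed from each other for a larger share of plastid-encoded genes than of other probe sets. WT array 1 was more than 1 log2 unit below WT array 2 for 12 of the 69 members (17.4%), against 4.58% of all probe sets. The opposite, WT array 1 more than 1 unit above, held for 0 members and for 1.93% of all probe sets. The ced1 arrays lay more than 1 unit apart for 3 members (4.35%), namely psbK, psbI and ndhF, against 4.42% of all probe sets. Among tested probe sets the share with ced1 arrays that far apart was 3.08% of the members and 0.234% of all, and the share with WT array 1 that far below WT array 2 was 18.5% of the members and 1.66% of all. Median absolute differences between replicate arrays over the members were 0.15 for ced1 and 0.41 for WT, beside 0.17 for ced1 and 0.27 for WT over all probe sets. WT array 1 gave the lowest of the 4 signals for 41 members (59.4%), against 35.8% of all probe sets.

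**Figure D3:**
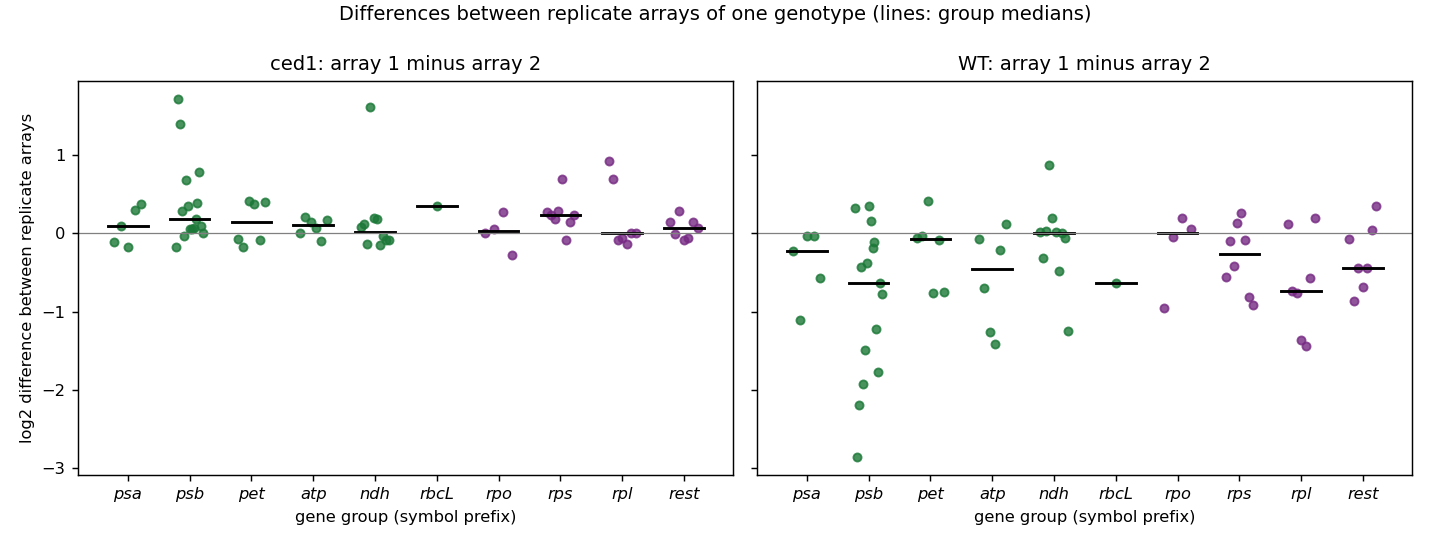
Log2 difference between array 1 and array 2 of a genotype (vertical axis), ced1 on the left and WT on the right, for each plastid-encoded gene by symbol prefix (horizontal axis), with lines at the group medians. The ced1 points lie mostly near 0. The WT points reach down to -2.86 in psb, with medians of -0.64 for psb, -0.74 for rpl and -0.46 for atp, while the ndh median is 0.01.

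psbK and psbI, for small photosystem II subunits, had the widest spread. psbK had 11184.2 and 3395.4 on the ced1 arrays, against 777.6 and 5731 on the WT arrays. psbI had 7478.4 and 2816.1 on the ced1 arrays, against 935.6 and 4334.6 on the WT arrays. In both genes ced1 array 1 was highest and WT array 1 lowest, with the second arrays of both genotypes between them. Their log2 differences of 1.53 ± 0.89 and 1.18 ± 0.70 did not pass (limma adjusted p = 0.202 and 0.211).

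psbD had 813.2 and 828.6 on the ced1 arrays, against 226.3 and 909.1 on the WT arrays, and psbC had 2973.2 and 1855.4 in ced1, against 810.4 and 2297.5 in WT. psbT, for a small subunit of photosystem II, had 619.4 and 351.5 in ced1, against 147.6 and 542.4 in WT. rpl16, for a protein of the large ribosomal subunit, had 2930.1 and 3201.2 in ced1, against 1254.7 and 3421.7 in WT. In these 4 genes WT array 1 was far below the other arrays, and WT array 2 was within or above the range of the ced1 arrays. The remaining members with WT arrays more than 1 unit apart were psbB, atpH, atpI, psaA, rpl14 and ndhH.

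Of these 12 genes 10 form 5 pairs of neighbours within a known co-transcribed unit, namely psbK with psbI, atpH with atpI, psbD with psbC, psbB with psbT, and rpl14 with rpl16. Over all members, 38 pairs of neighbours lie within a unit and 30 do not. Other genes in the units of these 5 pairs showed a smaller drop or none. In the unit of rps2, atpI, atpH, atpF and atpA, WT array 1 minus WT array 2 was -0.10, -1.41, -1.26, -0.70 and -0.07. In the unit of psbD, psbC and psbZ it was -1.93, -1.49 and -0.38. In the psbB unit it was -1.23 for psbB, -1.77 for psbT, -0.78 for psbH, -0.08 for petB and -0.75 for petD. In the large ribosomal unit it was -0.81 for rps19, -0.57 for rpl22, -0.08 for rps3, -1.44 for rpl16, -1.37 for rpl14, -0.76 for rpl36 and 0.06 for rpoA. In the psbE unit it ran from -0.19 to 0.35 over psbE, psbF, psbL and psbJ. The unit of ndhC, ndhK and ndhJ lay between -0.31 and 0.03.

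Differences between the genotypes also varied within units. In the psbB unit ced1 minus WT was above 0 for 5 of 5 genes, from 0.22 for petB to 0.96 for psbB, and none of the 4 tested passed. Against WT array 2 alone the difference was -0.21 for psbT, 0.02 for psbH, 0.18 for petB, 0.22 for petD and 0.34 for psbB. In the large ribosomal unit ced1 minus WT was above 0 for 6 of 7, from -0.03 for rps3 to 0.56 for rpl16. The member that passed was rpoA at 0.40. Against WT array 2 alone the difference was -0.05 for rps19, -0.07 for rps3, -0.16 for rpl16 and rpl36, and -0.33 for rpl14. It was 0.10 for rpl22 and 0.43 for rpoA. Of all 13648 tested probe sets, 7426 had a ced1 minus WT value above 0. In the unit of psaI, ycf4, cemA and petA ced1 minus WT ran from -0.06 to 0.28. In that of ndhH, ndhA, ndhI, ndhG, ndhE, psaC and ndhD it ran from -0.22 to 0.63. In the psaA unit, psaA and psaB differed by 0.13 and -0.09, and in the rpoB unit rpoC1 and rpoC2 differed by -0.03 and 0.27, while rps14 and rpoB had too little signal to be read beside them. Neighbouring members of a unit had a median gap of 0.21 between their ced1 minus WT values (38 pairs), and neighbours of different units one of 0.43 (30 pairs). All 69 members enter these pairs, including the 4 with too little signal to be tested, among them rps14 and rpoB. The gaps between WT array 1 and array 2 values were 0.52 and 0.45, so on that measure neighbours within a unit were no closer. The rank correlation of neighbours' WT array differences was 0.28 within units and 0.21 between units. For the ced1 array differences it was 0.47 within units and -0.03 between units.

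The outcome depended on which WT array ced1 was set against, and which of the WT arrays is nearer to the genotype's level was not tested. The mean of the ced1 arrays was above WT array 1 for 52 of 69 members and above WT array 2 for 31. Median log2 differences over the members were 0.26 against WT array 1 and -0.02 against WT array 2. Over all probe sets they were 0.11 and 0.02. With WT array 1 as the lone WT sample, 27 of 65 members were called higher and 3 lower, beside 32.8% and 24.7% of all tested probe sets. With WT array 2 as the lone WT sample, 5 were called higher and 7 lower, beside 27.6% and 24.2% of all tested probe sets, and the 5 were the same genes as with all arrays. That refit used the same ced1 arrays and the same tested probe sets as the fit with all arrays. The match of the 5 genes is therefore no independent support for them. It includes psbN, which entered the test only through its ced1 signals. For the 12 members with WT arrays over 1 unit apart, the ced1 mean was 0.35 to 2.96 above WT array 1, while its difference from WT array 2 ran from -1.06 to 0.34. These genes were picked by their WT gap, so each gene's values against the WT arrays had to lie more than 1 unit apart. The contrast does not show which WT array ced1 resembles. For atpI, the signal of 297.5 on WT array 2 stood apart from 137.8 and 130.4 in ced1 and 102 on WT array 1. atpH, psaA and rpl14 passed in opposite directions, at -0.52, -0.42 and -0.33 without WT array 1 and at 0.75, 0.69 and 1.04 without WT array 2.

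**Figure D4:**
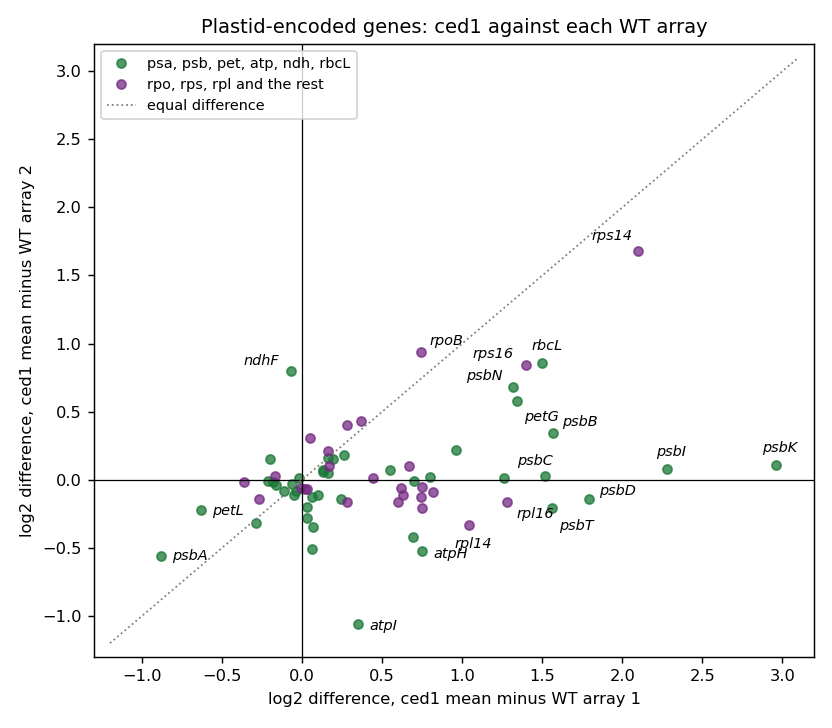
Log2 difference of the ced1 mean from WT array 1 (horizontal axis) and from WT array 2 (vertical axis), 1 point per plastid-encoded gene, with a dotted line where both are equal. Many points lie right of the line near 0 on the vertical axis, such as psbK at 2.96 and 0.11, while rbcL at 1.50 and 0.86 and psbA at -0.88 and -0.56 keep their sign on both axes.

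The plastid complexes also hold subunits encoded in the nucleus, and the few of them with a named probe set were mostly higher in ced1. Of the 22746 probe sets, 13436 were matched to 1 gene. Listed subunits without a named probe set may lie among the others. Of 35 listed nuclear subunits 8 have a named probe set, and 7 of these 8 were higher while 1, PETM, did not pass. Of all tested probe sets, 23.2% were higher. The median log2 difference was 0.73, with none lower. In photosystem I, PSAE1 and PSAN were higher by 0.53 ± 0.15 and 0.91 ± 0.11, where none of 5 psa genes passed. In the NDH complex, NDHL and NDHN were higher by 0.74 ± 0.18 and 1.05 ± 0.16, where none of 9 ndh genes passed. ATPC1, the gamma subunit of the ATP synthase, was higher by 0.41 ± 0.11, where none of 6 atp genes passed. In photosystem II, PSBW and PSBY were higher by 0.73 ± 0.12 and 0.73 ± 0.16, and in the cytochrome b6f complex PETM, at 0.44 ± 0.16, did not pass. These nuclear calls are from the main fit with all arrays. The alternative settings were read for the plastid-encoded genes only.

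NDHN had signals of 1737.1 and 1940.1 on the ced1 arrays, against 983.6 and 789.2 on the WT arrays, and PSAN had 11381.7 and 12010.3 in ced1, against 6306 and 6087.1 in WT. In these 2 genes WT array 1 was above WT array 2. Over the 8 nuclear genes WT array 1 was the lowest of the 4 arrays for 4 (50%), among them PSAE1 and PSBY with WT array 1 minus array 2 at -0.39 and -0.44. For the 8 genes that difference had a median of -0.01, and ced1 was above WT by a median of 0.78 for array 1 and 0.64 for array 2. Of 2 named nuclear genes for plastid ribosomal proteins, RPL3 was higher by 0.91 ± 0.11 and RPL29 differed by 0.33 ± 0.15 without passing. Whether nuclear and plastid-encoded subunits differ from each other was not tested, and their labelling may not be alike.

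**Figure D5:**
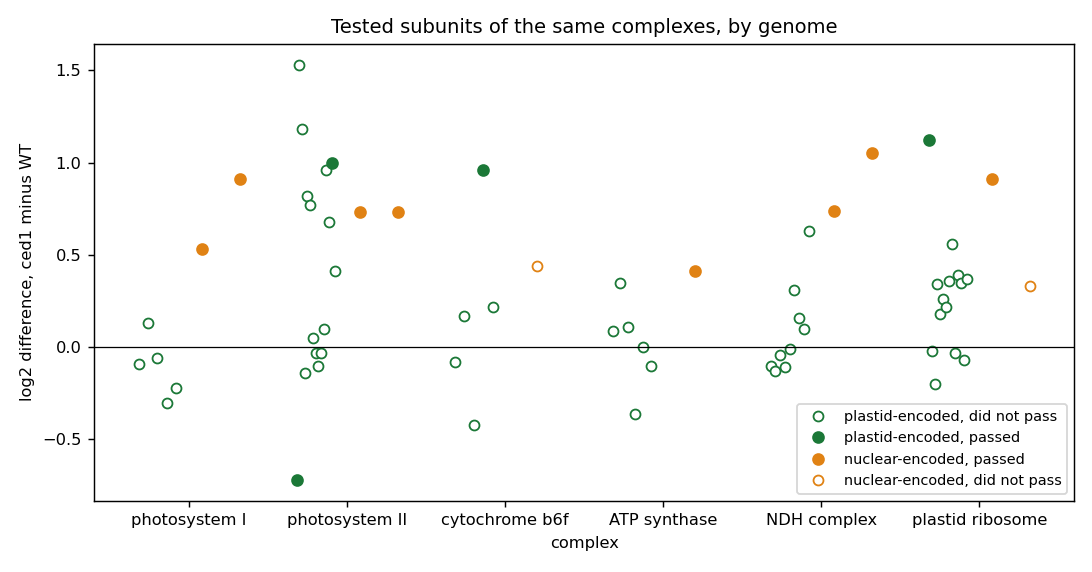
Log2 difference, ced1 minus WT (vertical axis), of tested subunits of 6 plastid complexes (horizontal axis), with plastid-encoded genes in green on the left and nuclear-encoded genes in orange on the right of each complex. Filled points passed. Nuclear points lie between 0.33 and 1.05, while plastid-encoded points spread around 0 and reach from -0.72 to 1.53.

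Of the 8 listed nuclear genes for sigma factors and phage-type polymerases, RPOTmp was the one with a named probe set, and its signals, 77.1 and 105.2 in ced1 against 22.3 and 87.5 in WT, were too low to be tested. The 12 listed proteins associated with the plastid-encoded polymerase and the 16 listed plastid RNA processing factors have no named probe set here, so the nuclear control of plastid transcription was not read. RCA, for Rubisco activase and a marker of leaf mesophyll, had 20648.2 and 22674.8 in ced1, against 12090.8 and 17157.2 in WT, and was higher by 0.59 ± 0.17. Of the listed mesophyll markers it was the one named, of 6. Of 4 listed root markers 3 were named and 2 tested, and PYK10, a root myrosinase, was lower, at -0.64 ± 0.11, while EXPA18 differed by -0.06 ± 0.23. In whole seedlings fewer cells of a type cannot be told apart from less RNA per cell, and the part of leaf and root shares in the plastid-encoded signals was not tested.

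Signal and length of a gene gave a weak description of these differences. Over the 69 members, the rank correlation of gene length with ced1 minus WT was 0.11, and with the absolute difference between WT arrays -0.02. Mean log2 signal had a rank correlation of -0.33 with ced1 minus WT and of -0.40 with the absolute difference between WT arrays, so that both tended to be larger where the signal was low. All points share the same 4 arrays, and no p is given.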

How the data were processed

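The authors deposited 1 signal intensity per probe set and array, and the submitters' processing notes name MAS5, which subtracts background and scales each array. Trimmed means of the arrays (2nd to 98th percentile) lay between 494.4 and 495.7; the MAS5 version is not given in the sources. Here, log2(signal + 16) was fitted in limma 3.58.1 under R 4.3.3, by lmFit and eBayes with a trend on intensity. Genotype was the factor, and nothing was normalized further. A mean log2 signal under the 40th percentile, about 102.7 as a signal, excluded 9098 probe sets, 4 of them plastid-encoded. Benjamini-Hochberg adjustment ran over the other 13648. Exact permutation of 2 against 2 arrays allows no two-sided p under 0.333, so calls depend on limma's shared estimate of spread. Fold changes of low signals are understated on this scale.

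Groups and replicate numbers came from the sample titles, which say biological replicate; how the replicates were raised is not stated, so p-values cover the spread between these samples, which may be technical. Any 2 arrays shared 36 to 62 identical signals. No batch is named. Probe sets were named through the platform annotation and, by gene ID, the TAIR10.1 gene table. The values name no build, and no coordinates are given. Members, lists and co-transcribed units were chosen with earlier results of these data known. Named are the called members, the members of highest signal and of highest and lowest difference in each prefix group, those with the largest WT spread, and members of units with 3 or more probe sets. Of nuclear lists up to 4 members were to be named; the other nuclear subunits were added after seeing their values. The fit was tested on simulated data. The 13 alternatives were an offset of 1 or 64, no filter or the 60th percentile, quantile or median scaling, centring on the plastid-encoded median, no trend, the replicate block, and leaving out each array.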

Additional observations from a re-analysis of the deposited data

How the results depend on the processing

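With all arrays, 5 plastid-encoded genes were higher and 1 lower in ced1. The higher count was 3 without the low-signal filter, 2 with the 60th percentile filter, and ranged from 0 to 27 when each array was left out in turn. The lower count was 2 with equal array medians, 0 relative to the plastid-encoded median, and ranged from 0 to 7 when each array was left out. A genotype left with 1 array takes its spread from the other genotype. The shares of all tested probe sets moved with the setting too. Higher were 23.2% in the main fit, 12.2% without the low-signal filter and 24.3% with the 60th percentile filter. Lower were 19.2% in the main fit, 25.3% with equal array medians and 14.6% relative to the plastid-encoded median. The shares without each array, given above, also differed from those of the main fit. The median difference of 0.17 ranged from -0.02 to 0.26 without each array and was -0.01 with equal array medians. Its shifts under all 13 alternatives were smaller than 0.22, the spread of the plastid-encoded median between replicate arrays. That spread exceeds the difference itself, so a shift to 0 would also count as smaller. No stability can be read from it. Of 838 gene-by-alternative values, 777 kept their side of the threshold, 17 calls were lost and 41 were gained. The other 3 changed sign without WT array 1 and were no calls with all arrays. They were atpH, psaA and rpl14, at -0.52, -0.42 and -0.33, against 0.11, 0.13 and 0.36 with all arrays. Without WT array 2 they were at 0.75, 0.69 and 1.04. Of the 777, 55 changed sign, passing in neither setting. Same-numbered arrays' deviations from their genotype means correlated with r = 0.0912 over all tested probe sets and r = -0.466 over the 65 tested members, and no label says that a number marks a shared day, so the numbers were not taken to pair the arrays. With the replicate number as a block, 14 members were higher and 1 was lower, beside 48.1% of all tested probe sets called. Signals near background and the number of arrays limit what can be read.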

Other observations

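Of the 8 plastid probe sets that list 2 gene records each and were left out above, 6 were tested, of which 1 was higher and 3 were lower in ced1 (limma, adjusted over all tested probe sets, of which 23.2% were higher and 19.2% lower), with log2 differences between -0.74 and 1.04 over all 8. WT array 1 was more than 1 log2 unit below WT array 2 for 1 of them. The spread between the ced1 arrays was 0.93 for rpl33 and 0.69 for rps18, neighbouring ribosomal protein genes with signals of 5495.4 and 1583.3 on ced1 array 1, while ced1 array 2, at 2884.3 and 974.2, lay close to the WT arrays, at 3286.2 and 3013.7 for rpl33 and at 1196 and 996.1 for rps18. rpl20, next to them on the plastid genome, had 319.8 and 192.6 in ced1, against 154.7 and 269.2 in WT. None of these 3 genes passed with all arrays, and rpl33 passed without ced1 array 2, at 0.80.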
